A study of Mus musculus with 24 samples.

Results

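The imprinted growth genes are a group of 10 genes of which mainly 1 parental copy is transcribed: H19, Igf2, Igf2r, Dlk1, Meg3, Peg3, Mest, Cdkn1c, Grb10 and Plagl1. They were measured in cultured precursors of white and brown fat cells. The members were taken by symbol, with earlier results of these data known, so their counts beside all genes are a description. H19 was chosen on its own measured values, namely a lower level at the later time and with the green tea catechin EGCG (epigallocatechin gallate). Its levels in those comparisons are therefore a description with no test, and the tests of those comparisons cover the other 9 members. All 10 were found among the 37310 genes of the deposited tables, and all 10 passed the filter on low values that left 14095 genes for testing.

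Stromal vascular cells, the mixed non-fat cells of adipose tissue that hold the fat cell precursors, came from the inguinal white adipose tissue (WAT) or the interscapular brown adipose tissue (BAT) of C57BL/6 mice aged 6 weeks. All cultures were brought to differentiate with insulin, dexamethasone and isobutylmethylxanthine for 4 days and then with insulin and T3 (triiodothyronine) for another 4 days. The medium also held EGCG or, in the controls, its solvent DMSO, and RNA was collected on day 4 or day 8. Depot, day and treatment thus defined 8 groups, each with 3 libraries (24 in all). The labels give neither the dose of EGCG nor the number of mice, and they do not say whether replicates were separate cultures, so p-values measure the spread between these libraries, which may be technical.

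Genomic imprinting marks a gene by DNA methylation according to the parent it came from, and the marked loci often hold clusters of genes that share enhancers and an imprinting control region. Igf2, Dlk1, Peg3, Mest and Plagl1 are known as paternally expressed genes, while H19, Igf2r, Meg3, Cdkn1c and Grb10 are mainly expressed from the maternal copy outside the brain. Many of them are abundant in the fetus, decline after birth and act on body growth, and PLAGL1 is a zinc finger transcription factor described as a regulator of other imprinted genes. The question was whether the other members moved together with H19.

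In the annotation of the files' build, NCBIM37 (mm9), H19 lies at chr7:149761434-149764048 and Igf2 at chr7:149836673-149852721, with Cdkn1c at chr7:150644255-150646955 and Peg3 at chr7:6656603-6683132. Dlk1 (chr12:110691033-110701546) and Meg3 (chr12:110779211-110809936) form the second locus that holds a pair of members. The remaining members are Igf2r (chr17:12875272-12962530), Mest (chr6:30673547-30698457), Grb10 (chr11:11830511-11938686) and Plagl1 (chr10:12810497-12851500). Igf2, Igf2r, Meg3 and Mest overlap genes of the opposite strand (Igf2as, Airn, Gm17639 and Copg2). Whether reads were counted by strand is not given in the sources used here, so reads of these members and of their antisense partners could not be told apart.

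H19, Mest, Igf2 and Meg3 are also host genes of microRNAs. Only the mature microRNAs of H19 and Mest are shown. The host RNA is what the libraries measured, and the microRNAs themselves were not measured. The sequences are those of RefSeq on GRCm38.p6, and the seed (bases 2 to 8) is in capitals. The 4 seeds shown differ from each other.
miR-675-5p (H19, chr7:142577112-142577133, minus strand): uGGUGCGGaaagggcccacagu
miR-675-3p (H19, chr7:142577078-142577099, minus strand): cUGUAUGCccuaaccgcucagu
miR-335-5p (Mest, chr6:30741314-30741336, plus strand): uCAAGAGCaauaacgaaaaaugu
miR-335-3p (Mest, chr6:30741354-30741375, plus strand): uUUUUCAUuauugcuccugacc

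Upstream sequence is shown for the members that held a match to a motif named below, and for Meg3 only the window with the match. With EGCG, Peg3 was lower in every comparison, Meg3 was called lower in WAT cells and Igf2r was higher in every comparison. Dlk1, Mest and Plagl1, also lower with EGCG in every comparison, held no match and are not shown. Of the 10 members, 8 had a promoter in the RefSeq table (GRCm38.p6); H19 and Cdkn1c had none. The 250 bases before each annotated start were searched on both strands for 3 motifs that read the same on both strands and that do not overlap one another, chosen after the sequences had been seen. They are GGGGCCCC, a GC-rich motif described for PLAGL1, the cyclic AMP response element TGACGTCA, and TCACGTGA, the core of the CLEAR element of lysosomal genes. Capitals mark these matches.
Peg3 (chr7:6730420-6730669, minus strand): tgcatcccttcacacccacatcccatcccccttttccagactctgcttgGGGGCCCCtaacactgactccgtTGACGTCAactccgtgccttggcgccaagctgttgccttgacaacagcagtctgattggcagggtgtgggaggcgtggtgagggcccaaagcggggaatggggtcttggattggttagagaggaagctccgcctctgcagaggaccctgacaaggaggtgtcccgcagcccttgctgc
Meg3 (chr12:109540746-109540995, plus strand): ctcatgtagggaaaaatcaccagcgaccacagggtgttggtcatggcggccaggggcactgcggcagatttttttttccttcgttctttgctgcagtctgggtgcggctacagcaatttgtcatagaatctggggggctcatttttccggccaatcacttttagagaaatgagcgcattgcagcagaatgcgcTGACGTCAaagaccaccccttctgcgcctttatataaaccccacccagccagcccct
Igf2r (chr17:12769707-12769956, minus strand): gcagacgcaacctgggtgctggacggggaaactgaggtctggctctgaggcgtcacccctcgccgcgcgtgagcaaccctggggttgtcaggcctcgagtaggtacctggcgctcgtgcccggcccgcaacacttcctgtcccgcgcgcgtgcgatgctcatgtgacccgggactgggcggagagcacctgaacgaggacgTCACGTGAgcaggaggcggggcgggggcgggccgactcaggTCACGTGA
GGGGCCCC was found in 0.889% of the 32851 upstream windows, TGACGTCA in 1.55% and TCACGTGA in 0.785%. Among the 15 windows of the members, the first occurred in Peg3 and the second in Peg3 and Meg3, and Igf2r held the third at 2 places, starting 49 and 8 bases before its start site. A match is a description of the letters and does not show a binding site.

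Sequencing depth was 39452696 to 52893848 reads on genes in replicates 1 and 2 and 16392420 to 41675648 in replicate 3, which stands in a separate table. Levels are FPKM (fragments per kilobase of gene length, scaled to the library's reads on genes) as mean ± SD of replicates 1 and 2 (n = 2), and replicate 3 gives values and directions with no test. A single library stood apart: in WAT day 8 EGCG replicate 3, 13 genes at 50 FPKM or more and at least 50 times their level in the other libraries, among them the placental hormone gene Prl3d1, took 61.3% of the reads. The value of this library was therefore rescaled to the remaining reads (a factor of 2.58) unless it is given as deposited, a choice made after the data had been seen. Whether reads of the members in this library came with those 13 genes was not tested. Among depot genes, Hoxc10, a posterior patterning gene, had mean FPKM of 6.32 to 11.9 in the WAT groups and 0.00563 to 0.0292 in the BAT groups. Zic1, a gene of brown precursors, had 0.0454 to 0.146 in WAT and 3.81 to 10.8 in BAT. Depots matched their labels, and Ucp1, the uncoupling protein of brown fat, reached 6.56 FPKM in BAT day 8 controls.

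H19, a long noncoding RNA, was the most abundant member per length in every group. In WAT cells its level was 756, 762 and 979 FPKM in the day 4 controls (replicates 1, 2 and 3), 384, 477 and 447 with EGCG, 250.5, 125 and 163 in the day 8 controls and 141, 151 and 152 with EGCG. In BAT cells the same groups gave 438, 414 and 493 FPKM, then 173, 211 and 245, then 176, 154 and 195, and finally 95.1, 77.6 and 108. The day 4 groups with EGCG lay below their controls in both depots and so did the BAT day 8 group, while the WAT day 8 groups overlapped. As a fold of the control mean, H19 in WAT cells stood at 0.567 on day 4 and 0.777 on day 8, and in BAT cells at 0.450 and 0.524. The day 8 mean was 0.247 of the day 4 mean in WAT controls and 0.386 in BAT controls. In the order of the group means, the ranges of WAT day 4 EGCG and BAT day 4 control overlapped, and so did those of BAT day 4 EGCG, WAT day 8 control and BAT day 8 control. In WAT day 8 cells the direction rested on 1 control library, since the log2 change was -0.28 with all 4 libraries, 0.22 without control replicate 1 and -0.78 without control replicate 2.

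**Figure D1:**
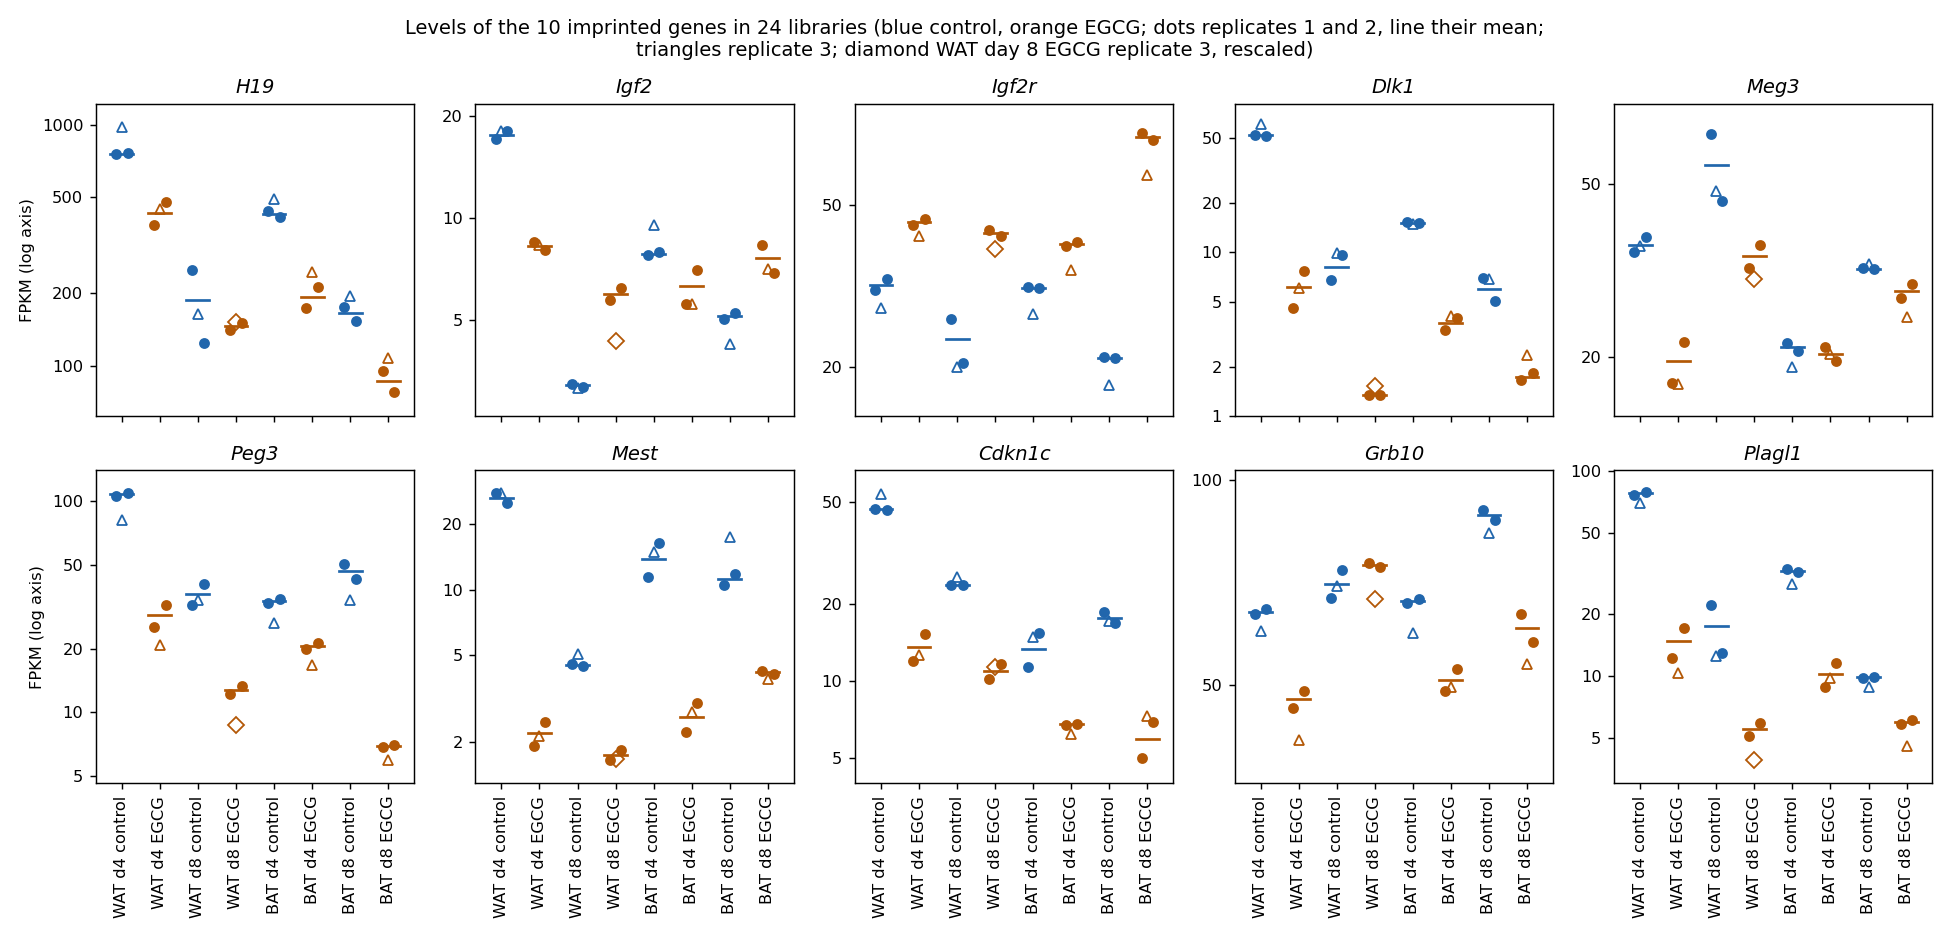
FPKM of the 10 members in each library on log axes, by group (control blue, EGCG orange), with replicates 1 and 2 as dots, their mean as a line and replicate 3 as a triangle (a diamond for the rescaled WAT day 8 EGCG library). The WAT day 4 controls lay highest for H19, Igf2, Dlk1, Peg3, Mest, Cdkn1c and Plagl1, while Igf2r was highest in BAT day 8 EGCG cells (73.7 FPKM), Meg3 in WAT day 8 controls (55.3) and Grb10 in BAT day 8 controls (88.7).

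The effect of EGCG was taken first. A member was called when its adjusted p was under 0.05 in limma with Benjamini-Hochberg adjustment over all 14095 genes, and a change is a difference in log2(FPKM + 1), where the added 1 shrinks the changes of low genes. Of the 9 members tested, 8 fell and 1 rose in WAT day 4 cells, against 19.3% of all genes called lower and 34.4% called higher. In WAT day 8 cells 6 fell and 2 rose (18.9% and 44.7% of all genes), in BAT day 4 cells 7 fell and 1 rose (20.6% and 27.9%), and in BAT day 8 cells 6 fell and 2 rose (26.1% and 46.5%). The median log2 change of the 9 members was -1.72, -1.01, -0.68 and -0.64 in that order, beside 0.09, 0.17, 0.03 and 0.17 for all genes tested. Members at least 2-fold lower numbered 6, 5, 3 and 4, beside 3.06%, 5.51%, 2.75% and 9.4% of all genes. Replicate 3 moved in the direction of the other libraries in 10, 9, 9 and 10 of the 10 members, H19 included. With the WAT day 8 EGCG library as deposited, the second of these counts was 7, since Igf2, Igf2r and Grb10 were then lower than in the control. Under median-ratio scaling of the libraries, the genes called lower came to 28.0%, 28.0%, 22.4% and 34.2% and those called higher to 24.9%, 28.6%, 25.1% and 35.6%, and the median of all genes was then -0.01, 0.00, 0.01 and 0.01. The members then numbered 8, 6, 7 and 7 lower and 1, 2, 1 and 2 higher.

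The members that fell in all 4 EGCG comparisons were Dlk1, Peg3, Mest, Cdkn1c and Plagl1, that is 5 of the 9, beside 6.21% of all genes tested. Igf2r alone of the 9 rose in all 4, beside 13.3% of all genes. With both tables in the fit, a table term and the odd library as deposited, 3 of these 4 calls of Igf2r were lost, at 0.52 (limma adjusted p = 0.0836) on day 4 and 0.44 (0.137) on day 8 in WAT cells and at 0.35 (0.316) on day 4 in BAT cells. Igf2 fell on day 4 and rose on day 8 in both depots. In the main fit Meg3 fell in WAT cells and was not called in BAT cells, and Grb10 fell in every comparison but WAT day 8. By parental class, all 5 paternally expressed members fell on day 4 in each depot and 4 of 5 fell on day 8, while of the 4 maternally expressed members tested 2 or 3 fell in each comparison.

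Dlk1 encodes a membrane protein of the Notch ligand family, known as preadipocyte factor 1, that restrains fat cell formation. WAT day 4 cells had 52.2, 51.6 and 60.9 FPKM in the controls and 4.55, 7.66 and 6.06 with EGCG. Day 8 gave 6.76, 9.60 and 9.97 FPKM against 1.34, 1.35 and 1.53. The controls were above the EGCG libraries at each day without overlap. In BAT cells it had 15.3, 15.1 and 15 FPKM in day 4 controls against 3.37, 3.99 and 4.06 with EGCG, and 6.97, 5.02 and 6.86 in day 8 controls against 1.65, 1.82 and 2.35. Control means were 8.50 and 6.09 times those with EGCG in WAT cells and 4.13 and 3.45 times in BAT cells. All 4 falls were called, with log2 changes of -2.93 ± 0.19 (SE; limma adjusted p = 2.63e-07), -1.95, -1.80 and -1.34.

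Mest, a protein with an alpha/beta hydrolase fold whose RNA is known to rise in expanding fat, had the largest day 4 change among the members. In WAT day 4 cells the controls had 28.0, 25.2 and 27.8 FPKM and the EGCG cells 1.91, 2.47 and 2.12, a 12.1-fold difference of the means (log2 change -3.11 ± 0.15, limma adjusted p = 1.78e-08). On day 8 the values were 4.58, 4.47 and 5.09 against 1.66, 1.84 and 1.68. The BAT controls had 11.4, 16.4 and 14.9 FPKM on day 4 and 10.6, 11.9 and 17.5 on day 8, against 2.21, 3.01 and 2.74 and then 4.24, 4.11 and 3.91 with EGCG. No EGCG library reached its controls in either depot. The log2 change was -1.01 on day 8 in WAT cells, and -2.03 and -1.24 on days 4 and 8 in BAT cells.

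Peg3, a zinc finger protein with a part in growth and maternal behaviour, had 106, 110.0 and 81.5 FPKM in the WAT day 4 controls and 25.5, 32.3 and 20.9 with EGCG. On day 8 the WAT cells had 32.4, 40.5 and 34.2 FPKM against 12.2, 13.3 and 8.74. In BAT cells the day 4 values were 33.0, 34.4 and 26.6 against 20.0, 21.3 and 16.8. The gap was widest in BAT day 8 cells, with 50.6, 42.9 and 33.9 FPKM in the controls and 6.83, 7.03 and 5.95 with EGCG. There the means differed 6.75-fold (log2 change -2.59 ± 0.12, limma adjusted p = 2.32e-09), and the other log2 changes were -1.87, -1.44 and -0.68. Zim1, an imprinted zinc finger gene known as the neighbour of Peg3, was called lower in the same 4 comparisons, with log2 changes of -3.29, -2.22, -0.88 and -2.56.

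Plagl1 had 76.7, 78.6 and 69.9 FPKM in the WAT day 4 controls and 12.3, 17.2 and 10.4 with EGCG. The day 8 values were 22.2, 13 and 12.6 against 5.08, 5.92 and 3.89. In BAT cells it had 33.2, 32.1 and 28.2 FPKM against 8.83, 11.6 and 9.85 on day 4, and 9.80, 9.90 and 8.82 against 5.83, 6.09 and 4.56 on day 8. The groups did not overlap, and the control mean was 5.26, 3.19, 3.21 and 1.65 times the EGCG mean. The log2 changes were -2.34, -1.47, -1.60 and -0.64. The last of these (limma adjusted p = 0.0129) was lost without BAT day 8 control replicate 2 (-0.63, adjusted p = 0.0501) or EGCG replicate 1 (-0.61, adjusted p = 0.0563).

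Cdkn1c encodes p57, an inhibitor of cyclin-dependent kinases. Its level was 46.8, 46.7 and 53.6 FPKM in WAT day 4 controls and 12.0, 15.2 and 12.6 with EGCG, and 23.7, 23.8 and 25.5 against 10.1, 11.7 and 11.4 on day 8. BAT cells had 11.3, 15.5 and 14.8 FPKM against 6.74, 6.81 and 6.19 on day 4 and 18.6, 16.8 and 17.1 against 5.00, 6.93 and 7.32 on day 8. Every EGCG library was below its controls. Log2 changes were -1.72, -1.06, -0.87 and -1.44, and limma adjusted p-values ran from 2.52e-06 to 0.000505. Of 14 cell cycle genes, 13 fell in WAT day 4 cells, and none fell and 3 rose in WAT day 8 cells. In BAT cells 1 fell and 3 rose on day 4, and 10 rose on day 8. Of all genes, 19.3%, 18.9%, 20.6% and 26.1% fell and 34.4%, 44.7%, 27.9% and 46.5% rose, in that order. A link between these genes and Cdkn1c was not tested.

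Igf2r encodes the receptor that carries IGF2 and mannose 6-phosphate tagged enzymes to lysosomes, and thereby removes IGF2 from the surroundings of the cell. It had 30.9, 33.0 and 28.0 FPKM in WAT day 4 controls and 44.7, 46.3 and 42.0 with EGCG, and 26.3, 20.6 and 20.0 against 43.6, 42.0 and 39.1 on day 8. As deposited, the last of these EGCG libraries had 15.1 FPKM, below its control. BAT cells had 31.5, 31.4 and 27.0 FPKM against 39.7, 40.6 and 34.7 on day 4, and 21.2, 21.1 and 18.1 against 75.3, 72.2 and 59.2 on day 8. All EGCG groups were above their controls on this rescaled basis. Log2 changes were 0.50, 0.85, 0.34 and 1.75 (± 0.08), the last being a 3.49-fold rise (limma adjusted p = 3.18e-09).

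Igf2, the growth factor ligand, was low beside H19. Its WAT controls had 17.2, 18.1 and 18.1 FPKM on day 4 and 3.23, 3.17 and 3.14 on day 8, and the EGCG cells 8.51, 8.04 and 8.31 and then 5.71, 6.19 and 4.33. BAT controls had 7.76, 7.94 and 9.55 FPKM on day 4 and 5.03, 5.23 and 4.23 on day 8, and the EGCG cells 5.57, 7.0 and 5.56 and then 8.35, 6.87 and 7.07. Hence EGCG cells were below their controls on day 4 and above them on day 8, except that WAT day 8 EGCG replicate 3 as deposited had 1.68 FPKM, below its control. The log2 changes were -1.01 (limma adjusted p = 4.54e-06) and 0.73 (3.56e-05) in WAT cells and -0.29 (0.0256) and 0.49 (0.000603) in BAT cells. With both tables, a table term and the odd library as deposited, 2 of these calls were lost. They were WAT day 8 (0.27, limma adjusted p = 0.379) and BAT day 4 (-0.42, 0.185). The BAT day 4 call was lost without control replicate 1 (-0.30, adjusted p = 0.0706), control replicate 2 (-0.27, 0.102) or EGCG replicate 1 (-0.15, 0.259), and with no filter on low values (-0.29, 0.0502).

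Meg3, a long noncoding RNA of the Dlk1 locus, had 34.8, 37.7 and 35.9 FPKM in WAT day 4 controls against 17.5, 21.6 and 17.3 with EGCG, and 65.1, 45.6 and 48.3 against 32.0, 36.1 and 30.2 on day 8. In BAT cells it had 21.5, 20.6 and 19 FPKM against 21.1, 19.6 and 20.3 on day 4, where the groups overlapped, and 32.0, 31.8 and 32.7 against 27.4, 29.4 and 24.8 on day 8. Log2 changes of -0.86 and -0.67 were called in WAT cells, and those of -0.05 (limma adjusted p = 0.788) and -0.16 (0.302) in BAT cells were not. Under median-ratio scaling the BAT day 8 change was -0.36 and was called (adjusted p = 0.0347). With both tables in the fit and WAT day 8 EGCG replicate 3 left out, it was -0.24 and also called (limma adjusted p = 0.0337).

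Grb10 encodes an adaptor that damps signalling of the insulin and IGF1 receptors, and it varied least among the members. With the odd library rescaled, it ran from 41.4 FPKM in a WAT day 4 EGCG library to 90.3 in a BAT day 8 control. As deposited, that library (WAT day 8 EGCG replicate 3) had 25.9 FPKM, the lowest of the 24. Grb10 fell with EGCG from 64.0 ± 0.81 to 47.6 ± 2.0 FPKM in WAT day 4 cells, from 66.4 ± 0.66 to 50.8 ± 2.6 in BAT day 4 cells and from 88.7 ± 2.2 to 60.6 ± 4.1 in BAT day 8 cells (SD, n = 2). With both tables, a table term and the odd library as deposited, the day 4 calls were lost. The log2 changes were then -0.46 (limma adjusted p = 0.167) in WAT and -0.34 (0.366) in BAT cells. In WAT day 8 cells, 70.4 ± 4.6 FPKM in the controls and 75.0 ± 0.81 with EGCG did not pass the test (log2 change 0.09, limma adjusted p = 0.187), and the sign turned to -0.11 under median-ratio scaling.

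Maturation of the control cells from day 4 to day 8 was compared next. In WAT controls 7 of 9 members fell and 1 rose, against 33.2% and 27.7% of all genes, and 5 fell at least 2-fold, against 3.8%. In BAT controls 4 fell and 4 rose, against 40.4% and 28.7%, and 2 fell at least 2-fold, against 6.53%. The median log2 change of the members was -1.55 in WAT and -0.27 in BAT controls, beside -0.03 and -0.10 over all genes. Under median-ratio scaling 29.9% of all genes were lower and 36.9% higher in BAT controls, with 4 members lower and 4 higher, and the median of all genes there was 0.04.

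With time, Dlk1, Plagl1, Igf2 and Igf2r fell in the controls of both depots. The log2 changes in WAT and BAT controls were -2.54 and -1.23 for Dlk1, -2.13 and -1.63 for Plagl1, -2.15 and -0.53 for Igf2 and -0.44 and -0.55 for Igf2r. Mest fell in WAT controls from 26.6 ± 2.0 to 4.53 ± 0.08 FPKM (log2 change -2.32), while in BAT controls 13.9 ± 3.5 and 11.2 ± 0.92 FPKM were not told apart (-0.27, limma adjusted p = 0.130). Without BAT day 4 control replicate 1 the latter was -0.51 and called. Replicate 3 of the BAT controls went the other way, from 14.9 FPKM on day 4 to 17.5 on day 8. Peg3 fell in WAT controls (-1.55) and rose in BAT controls (0.46, limma adjusted p = 0.00414), and Cdkn1c did likewise (-0.95 and 0.39). The rise of Cdkn1c (adjusted p = 0.0365) was lost without BAT day 4 control replicate 1 (0.18), BAT day 8 control replicate 1 (0.32) or replicate 2 (0.46). Meg3 rose in both depots by 0.58 on the log2 scale, opposite to its neighbour Dlk1. Grb10 rose in BAT controls (0.41, limma adjusted p = 5.21e-05), and its change of 0.13 in WAT controls (adjusted p = 0.0665) was called under median-ratio scaling (0.19) and without WAT day 8 control replicate 1 (0.20).

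The same change with time was then taken in EGCG cells, and its difference from the controls was not tested. In WAT cells with EGCG 4 members fell and 2 rose, against 27.7% and 31.8% of all genes, and in BAT cells with EGCG 3 fell and 5 rose, against 28.2% and 29.7%. The members that fell in both were Dlk1 (log2 change -1.57 in WAT and -0.77 in BAT cells), Peg3 (-1.11 and -1.45) and Plagl1 (-1.26 and -0.67), and those that rose in both were Meg3 (0.78 and 0.46) and Grb10 (0.65 and 0.25). Igf2 fell in WAT cells (-0.42) and rose in BAT cells (0.24, limma adjusted p = 0.0453). Igf2r (0.86) and Mest (0.53) also rose in BAT cells. In BAT cells several calls depended on 1 library. Igf2 was lost without EGCG day 4 replicate 1 (0.10) or day 8 replicate 1 (0.12), Meg3 without replicate 2 of either day (0.41), Mest without day 4 replicate 1 (0.37) and Plagl1 without day 4 replicate 2 (-0.50) or day 8 replicate 1 (-0.65). Cdkn1c in WAT cells (-0.29, adjusted p = 0.117) was called without day 4 replicate 1 (-0.45). The means of H19 on day 8 were 0.338 of those on day 4 in WAT cells and 0.450 in BAT cells with EGCG. The EGCG comparisons and those with time share libraries, so their values are given side by side and were not correlated with each other.

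**Figure D2:**
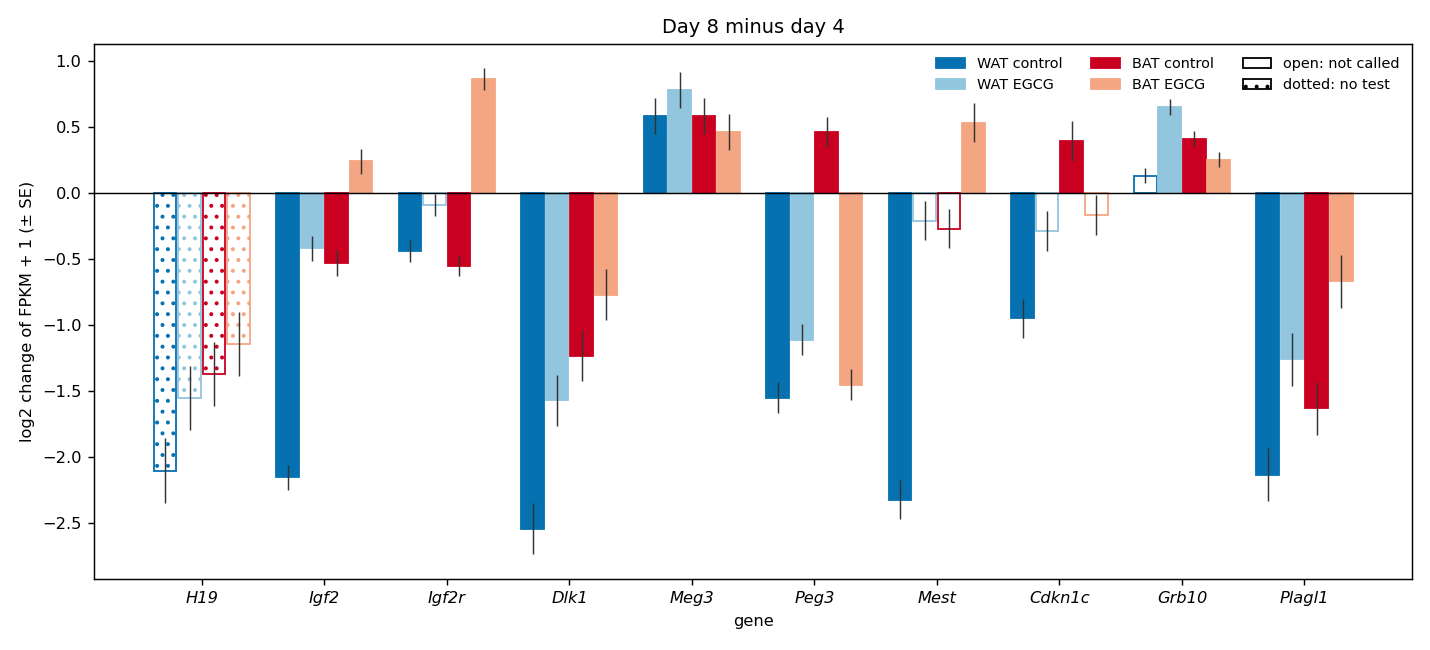
Log2 change from day 4 to day 8 (FPKM + 1, ± SE) of each member in control and EGCG cells of each depot, filled where called, open where not called and dotted for H19, which was not tested. Dlk1 and Plagl1 point down and Meg3 up in all 4 comparisons, whereas Peg3 falls in WAT controls (-1.55) and rises in BAT controls (0.46).

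The depots differed already in the day 4 controls. H19 was not chosen on this comparison, and all 10 members were tested. The same control libraries entered the comparisons on which H19 was chosen, so its test here is not free of that choice. Of the 10 members 8, H19 among them, were lower in BAT than in WAT cells and none was higher, against 14.4% and 41.4% of all genes. The log2 differences (BAT minus WAT) were -1.75 for Cdkn1c, -1.71 for Dlk1, -1.65 for Peg3, -1.22 for Plagl1, -1.07 for Igf2, -0.91 for Mest, -0.83 for H19 and -0.75 for Meg3. Igf2r (-0.02, limma adjusted p = 0.837) and Grb10 (0.05, 0.468) were not called. The call of H19 (adjusted p = 0.0126) was lost without WAT replicate 2 (-0.83, adjusted p = 0.0527) or BAT replicate 2 (-0.79, 0.0597). Under median-ratio scaling 23.6% of all genes were lower and 24.2% higher, and 8 members were again lower and none higher. The median difference of all genes was 0.15 before and 0.01 after that scaling, and the sign of Grb10 turned to -0.12.

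On day 8 the order of the depots was mixed. In BAT relative to WAT controls 4 members were higher and 3 lower, against 31.6% and 22.0% of all genes. Mest stood highest, at 11.2 ± 0.92 against 4.53 ± 0.08 FPKM (log2 difference 1.14, limma adjusted p = 5.22e-05), followed by Igf2 (0.54), Peg3 (0.35) and Grb10 (0.33). Meg3 (-0.75), Plagl1 (-0.73) and Cdkn1c (-0.40) were lower. H19 was not called, with 165 ± 15 in BAT and 188 ± 89 FPKM in WAT controls (-0.10, limma adjusted p = 0.744), and the sign turned to 0.40 without WAT control replicate 1. Of these 7 calls, those of Peg3, Plagl1 and Cdkn1c were lost on leaving out 1 library. WAT day 8 control replicate 1 alone changed the calls of Peg3 (0.20 without it), Plagl1 (-0.37), Cdkn1c (-0.41) and Dlk1 (from -0.39 not called to -0.61 called). Without WAT day 8 control replicate 2, H19 (-0.61) and Igf2r (-0.30) were called lower and Cdkn1c (-0.40) was lost. Without BAT day 8 control replicate 1, Peg3 (0.24) and Cdkn1c (-0.47) were lost, as was Cdkn1c without replicate 2 (-0.34). Grb10 was lost under quantile normalization (0.15), and Peg3 under this (0.22) and median-ratio scaling (0.31).

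The effect of EGCG was then compared between depots as an interaction, BAT minus WAT. On day 4, 6 of 9 members had a higher value, which means a change nearer to 0 in BAT cells, and none a lower one, against 12.0% and 16.1% of all genes. They were Peg3 (1.20), Dlk1 (1.14), Mest (1.08), Cdkn1c (0.84), Meg3 (0.81) and Igf2 (0.72). Cdkn1c was lost without WAT day 4 EGCG replicate 1 (0.68, limma adjusted p = 0.0554), and Plagl1 (0.74, adjusted p = 0.075) was called without WAT day 4 EGCG replicate 2 (0.96). Under median-ratio scaling 16% of all genes were higher and 10.5% lower, with the count of members still 6 and 0. On day 8, 2 members were higher (Igf2r 0.90, Plagl1 0.83) and 2 lower (Peg3 -1.15, Grb10 -0.64), against 19.4% and 19.7%. The call of Plagl1 (adjusted p = 0.0371) was lost without any 1 of 7 of the 8 libraries, at 0.47 to 0.92. Without WAT day 8 control replicate 1, Dlk1 (0.84) was called, and without replicate 2, Meg3 (0.75) was. For H19 the difference was -0.33 on day 4 and -0.65 on day 8, not tested.

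**Figure D3:**
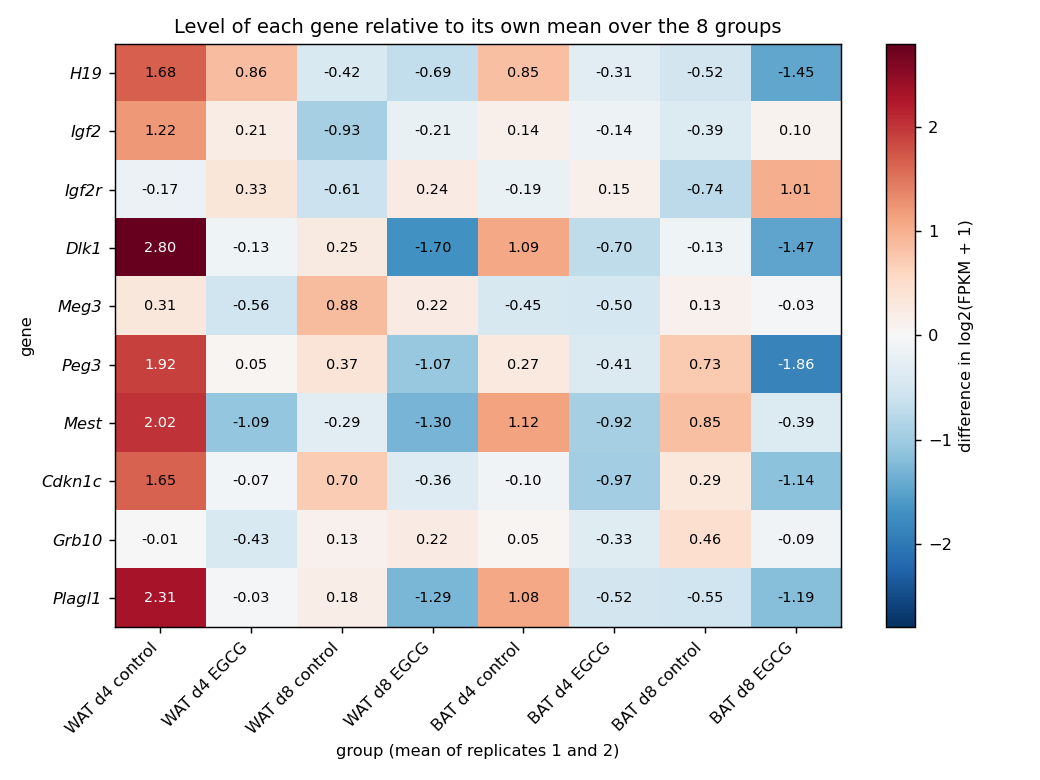
Level of each member in each group relative to the mean of the 8 groups, as a difference in log2(FPKM + 1), red above and blue below that mean. Dlk1, Plagl1, Mest, Peg3, H19 and Cdkn1c are 1.65 to 2.80 above their mean in WAT day 4 controls, while Igf2r (-0.17) and Grb10 (-0.01) are near theirs.

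Across the 8 group means, the Pearson correlation of log2(FPKM + 1) with H19 was 0.89 for Plagl1, 0.86 for Dlk1, 0.79 for Peg3, 0.68 for Cdkn1c, 0.67 for Igf2 and 0.56 for Mest. It was -0.20 for Meg3, -0.27 for Grb10 and -0.30 for Igf2r. Dlk1 and Plagl1 lay closest together of all pairs, at 0.99, followed by Dlk1 and Peg3 and by Cdkn1c and Peg3, at 0.90 each. These values describe 8 groups that share treatment, day and depot, and no test was made. H19 was chosen for its lower level with time and with EGCG, which these groups carry, so its correlations are a description only. Outside the members, the genes most like H19 over the 16 libraries were sought above a floor on the highest group mean. They were Prickle1 (0.95), a planar cell polarity gene, Ssr2 (0.95), a subunit of the translocon-associated protein complex, and SNORA8 (0.94), a small nucleolar RNA. Snhg5 (0.94), a small nucleolar RNA host gene, and Ap4m1 (0.93), a subunit of an adaptor complex of vesicles, followed. Over the same libraries Plagl1, the closest member, had 0.89. Prickle1, for example, had mean FPKM of 19.7 in WAT day 4 controls and 3.90 in BAT day 8 EGCG cells.

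The reads of the 10 members together made up 0.464% to 0.493% of the reads on genes in WAT day 4 controls, 0.251% to 0.255% in BAT day 4 controls and 0.155% to 0.176% in BAT day 8 EGCG cells. H19 contributed 36.6% to 45.4% of them in the first of these groups and 10.5% to 15.9% in the last.

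Ratios within a library do not depend on its scaling, so replicate 3 could be used as deposited. The ratio of H19 to Igf2, the maternal and paternal RNA of 1 locus, was 42.1 to 54.0 in WAT day 4 controls and 45.2 to 59.4 with EGCG, which overlapped. It was 39.3 to 77.6 and 24.3 to 35.2 in WAT day 8 cells, 51.6 to 56.5 and 30.2 to 44.1 in BAT day 4 cells, and 29.4 to 46.1 and 11.3 to 15.2 in BAT day 8 cells. The EGCG libraries thus lay below their controls in all but WAT day 4 cells, which is a description only, since H19 was chosen for its lower level with EGCG. Meg3 relative to Dlk1 was 0.590 to 0.731 in WAT day 4 controls and 2.83 to 3.84 with EGCG, then 4.75 to 9.62 and 19.7 to 26.8 on day 8. In BAT cells the ratio was 1.27 to 1.40 and 4.91 to 6.26 on day 4, and 4.60 to 6.34 and 10.5 to 16.6 on day 8. The EGCG libraries lay above their controls without overlap, and the ratio was also higher on day 8. Meg3 itself fell or was not called with EGCG, so the higher ratio with EGCG restates the fall of Dlk1 given above. Igf2r relative to Igf2 was 1.54 to 1.82 in WAT day 4 controls and 5.05 to 5.75 with EGCG, and 2.83 to 4.05 and 5.80 to 7.13 in BAT day 4 cells. On day 8 it was 6.37 to 8.15 and 6.79 to 9.02 in WAT cells, which overlapped, and 4.04 to 4.28 and 8.38 to 10.5 in BAT cells. Plagl1 relative to Cdkn1c, a pair of which the first is a regulator described for imprinted genes, was 1.30 to 1.68 in WAT day 4 controls and 0.819 to 1.13 with EGCG, and 1.90 to 2.93 and 1.31 to 1.70 in BAT day 4 cells. On day 8 it was 0.493 to 0.936 and 0.342 to 0.508 in WAT cells, which overlapped, and 0.515 to 0.588 and 0.623 to 1.17 in BAT cells. It was thus lower with EGCG on day 4 in both depots and higher in BAT day 8 cells. No test was made of the ratios, and how often other pairs of genes separate in this way was not counted.

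**Figure D4:**
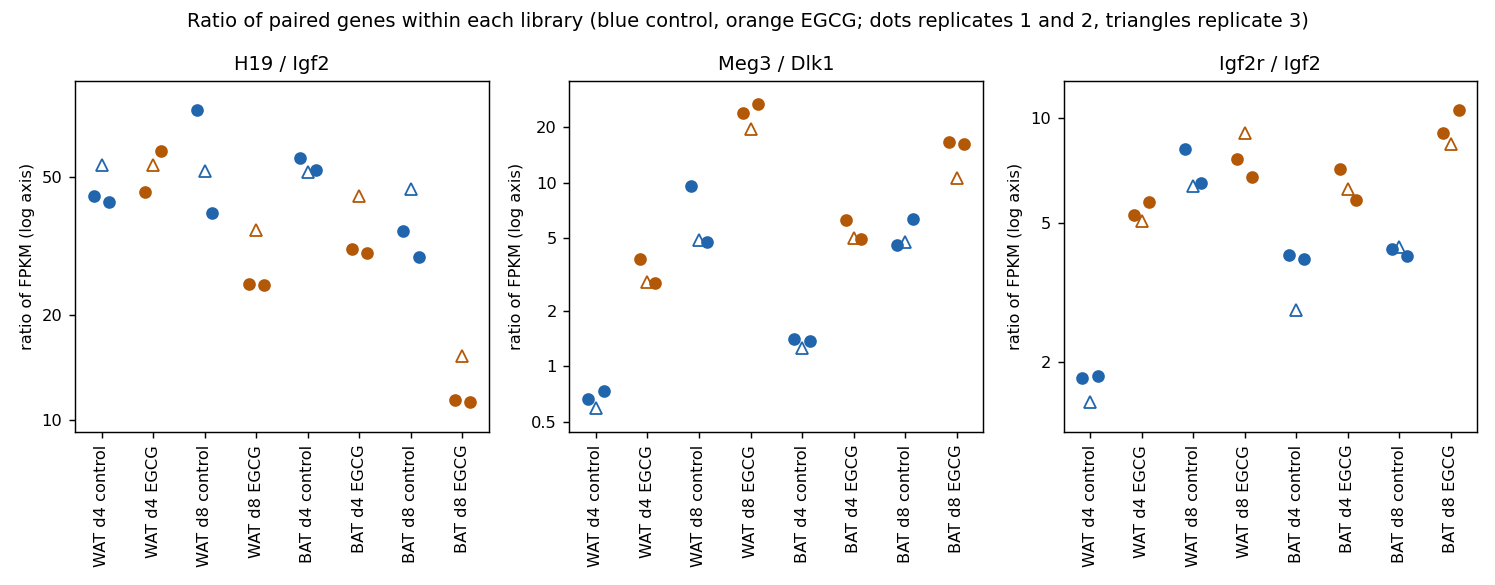
Ratio of FPKM of 2 members within each library on log axes, by group (control blue, EGCG orange), with replicates 1 and 2 as dots and replicate 3 as a triangle. H19 to Igf2 is lowest in BAT day 8 EGCG cells (11.3 to 15.2), and Meg3 to Dlk1 lies at 0.590 to 0.731 in WAT day 4 controls and at 19.7 to 26.8 in WAT day 8 EGCG cells.

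Of 44 other imprinted genes, 42 were matched and 31 tested. With EGCG, 12 rose and 11 fell in WAT day 4 cells, against 34.4% and 19.3% of all genes. In WAT day 8 cells 13 rose and 5 fell (44.7% and 18.9%). In BAT cells 10 rose and 5 fell on day 4 (27.9% and 20.6%), and 17 and 6 on day 8 (46.5% and 26.1%). The median log2 changes were 0.07, 0.24, -0.02 and 0.27, beside 0.09, 0.17, 0.03 and 0.17 for all genes tested. The genes with the largest falls were Zim1 and Slc38a4, an amino acid transporter (-1.57), in WAT day 4 cells, and the largest rises were those of Impact, a regulator of translation under amino acid shortage, on day 8 (1.19 in WAT and 1.90 in BAT cells). Dio3, the enzyme that inactivates thyroid hormone and lies beyond Meg3 in the Dlk1 locus, rose with time in the controls (3.13 in WAT and 2.53 in BAT cells), and Peg10 fell (-2.51 and -3.07). In the controls, 10 of the 31 rose and 13 fell with time in each depot. Of all genes, 27.7% rose and 33.2% fell in WAT controls, and 28.7% and 40.4% in BAT controls. In BAT relative to WAT controls 11 of the 31 were higher and 11 lower on each day. Of all genes, 41.4% were higher and 14.4% lower on day 4, and 31.6% and 22.0% on day 8.

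Of the IGF axis, 13 of 14 genes were tested. With EGCG 3 rose and 3 fell in WAT day 4 cells, 5 and 8 in WAT day 8 cells, 4 and 5 in BAT day 4 cells and 4 and 8 in BAT day 8 cells, with median log2 changes of -0.09, -0.49, -0.04 and -0.52. The shares of all genes called are those given above for the same comparisons. Igf1, the other ligand, fell on day 4 from 75.6 to 13 FPKM in WAT and from 39.3 to 8.17 in BAT cells (log2 changes -2.47 and -2.14). The receptor gene Igf1r rose in all 4 comparisons by 0.55, 1.05, 0.75 and 1.14. Of the 6 binding protein genes tested, only Igfbp5 rose on day 8. Igfbp5 rose by 1.50 in WAT and 3.07 in BAT cells, while the other 5 tested all fell, by as much as 2.01 in WAT (Igfbp4) and 2.85 in BAT cells (Igfbp3) on the log2 scale.

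Markers of other cell states moved with the same comparisons, and their sums are given for replicates 1 and 2. The shares of all genes called in each comparison are those given above for the members. All 15 mature adipocyte genes fell with EGCG in each of the 4 comparisons (median log2 changes -2.29, -4.52, -2.17 and -4.58), and their summed FPKM was 3965 to 12708 in control and 533 to 1748 in EGCG libraries. All 14 cell cycle genes fell with time in each of the 4 comparisons, and their summed FPKM in the controls was 163 to 164 in WAT and 255 to 257 in BAT cells on day 4 and 32.4 to 40.9 on day 8. The 8 adipose progenitor genes had a sum of 379 to 1445 in control and 624 to 988 in EGCG libraries, and of the 7 tested 2 to 3 rose and 0 to 4 fell with EGCG. Summed endothelial levels (6 genes) were 11.1 to 21.7 FPKM in control and 29.0 to 38.8 in EGCG libraries, and 4, 4, 5 and 5 of the 5 tested rose with EGCG. Macrophage genes (7) had sums of 16.1 to 38.3 in control and 12.8 to 34.7 in EGCG libraries, with 5 and 3 of 6 tested higher on day 4 and 6 and 5 lower on day 8. Skeletal muscle genes (9) had sums of 14.3 to 56.7 in control and 19.6 to 102 in EGCG libraries, and in each group the precursor genes Pax7, Myf5 or both had at most 3 reads. Of the 5 muscle genes tested, EGCG raised 5 and 1 in WAT cells (days 4 and 8), while in BAT cells none was called on day 4 and 2 fell on day 8. Mesothelial sums (5 genes) were 0.568 to 8.98 FPKM in control and 2.69 to 29.2 in EGCG libraries, with Upk3b at 3 reads or fewer throughout, and both genes tested rose in each EGCG comparison. The 11 placenta genes matched summed to at most 0.685 FPKM in 23 libraries and to 230490 in WAT day 8 EGCG replicate 3. The part of these cell types in the changes of the members was not tested, and in bulk RNA fewer cells of a type and less RNA per cell cannot be told apart.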

How the data were processed

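The 24 RNA-seq libraries, in 8 groups of 3 by depot, day and treatment, were analysed. The authors deposited FPKM values per gene in 2 tables, replicates 1 and 2 with the gene lengths in the first and replicate 3 in the second, on GENCODE genes of NCBIM37 (mm9). The submitters' processing notes name FastQC 0.11.9, HISAT2 2.2.0 and HTSeq 0.11, without their settings. Since FPKM are not counts, no count model was used. All 24 columns were matched to a sample by their labels, and 0 were left unmatched.

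Genes with FPKM of at least 1 in at least 2 of the 16 libraries of replicates 1 and 2 were kept (14095 genes). Values were transformed to log2(FPKM + 1) and fitted with limma 3.58.1 in R 4.3.3 (group means, moderated variance with trend, 8 residual degrees of freedom), two-sided, with Benjamini-Hochberg adjustment within each of the comparisons. Tables were made with Python 3.11.15 and pandas 2.3.3. The 2 tables were not pooled in the main fit, so replicate 3 entered only as values and directions. Within groups, replicates 1 and 2 differed by more than sampling noise (median squared difference 1.62 to 3.90 sampling units, 0.455 from sampling alone). On simulated data for the EGCG comparison in WAT day 4 cells, 94.6% of genes changed 2-fold and 99.0% of those changed 4-fold were called. The simulation gave every gene the same dispersion (0.00296) and changed 93 genes 2-fold and 97 genes 4-fold in a single group. In the data far more genes changed and genes differ in their spread, so these rates need not hold there.

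The members and all gene lists were chosen with earlier results of these data known. All 10 members are named. So are the 5 genes most correlated with H19 among tested genes whose highest group mean was at least 5 FPKM. Of a list, in a comparison, the 2 called genes that rose most and the 2 that fell most could be named. Prl3d1, Zic1, Hoxc10, Ucp1, Pax7, Myf5 and Upk3b were named after their values were seen, as were Igf1r and Zim1 where they are followed across comparisons. Alternatives were another pseudocount (0.1), median-ratio scaling, quantile normalization, no filter, a replicate block, both tables together and each library left out in turn. The paper given with these data was used for style only.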

Additional observations from a re-analysis of the deposited data

Results flagged for a closer look

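The effect of EGCG differed between BAT and WAT cells for 6 of the 9 members tested on day 4 and for 4 on day 8, by the interaction term of the limma fit (BAT minus WAT, log2). Of all genes, 12.0% were called higher and 16.1% lower on day 4, and 19.4% and 19.7% on day 8, so the count of members on day 8 is near that of all genes. On day 4 the differences were 0.72 for Igf2, 1.14 for Dlk1, 0.81 for Meg3, 1.20 for Peg3, 1.08 for Mest and 0.84 for Cdkn1c, with adjusted p-values of 0.000327 (Peg3) to 0.013 (Cdkn1c). All 6 changes were nearer to 0 in BAT cells, where the control levels of these members were also lower. On day 8 they were 0.90 for Igf2r, -1.15 for Peg3, -0.64 for Grb10 and 0.83 for Plagl1. Peg3 therefore differed in opposite directions on the 2 days. The call of Plagl1 on day 8 was lost on leaving out 7 of the 8 libraries singly (0.47 to 0.92), and that of Cdkn1c on day 4 without WAT day 4 EGCG replicate 1 (0.68).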

How the results depend on the processing

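The number of members called was within 1.5 times that given in each of the 12 comparisons under a pseudocount of 0.1, median-ratio scaling, quantile normalization, no filter, the replicate block and both tables with the WAT day 8 EGCG replicate 3 library left out or, as an alternative added after seeing the data, rescaled, and in each comparison when any 1 of its libraries was left out. With both tables and a table term, that library as deposited, it fell from 8 to 5 (EGCG in BAT day 4 cells), 8 to 5 (time, BAT controls), 8 to 4 (time, BAT cells with EGCG), 7 to 3 (BAT against WAT, day 8 controls) and 6 to 3 (depot difference, day 4). The EGCG change of H19 in WAT day 8 cells turned from -0.28 to 0.22 without control replicate 1, within a range of -0.78 to 0.22 over single libraries left out. Among the single-member values with a library left out, 513 stayed on the same side of the threshold or, with no test, within the replicate spread, 32 were no longer called, 9 became called, and of the untested H19 values 5 moved by more than that spread and 1 reversed. With no filter, Igf2 (BAT day 4 EGCG, and with time under EGCG), Cdkn1c (with time in BAT controls, and BAT against WAT on day 8) and Plagl1 (depot difference, day 8) were not called. Same-numbered replicates did not deviate together across genes (correlations of -0.07 to 0.081), and the main fit used no pairing. With 2 libraries in a group this cannot exclude that same-numbered libraries share a mouse or a preparation. A replicate block moved 1 call, Igf2 with time in BAT cells with EGCG (0.24, limma adjusted p = 0.055). Each group had 2 libraries of 39452696 to 52893848 reads on genes, and 3 reads or fewer were taken as not detected. Leaving out a library leaves a lone sample in its group, assumed to vary like the other groups.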
